A study of Mus musculus with 12 samples.

Results

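Slc5a12 Lct enterocytes were 600 cells of the 27881 in a pooled single-cell table of mouse small intestinal epithelium. The number 600 was fixed beforehand, so their share of 2.15% is no estimate of how common such cells are. They were chosen by measured values. A cell had to have a value above 0 for Slc5a12 and 0 for S100g, Slc10a2 and Nt5e, which 1892 cells did. The 600 cells with the highest mean of log-scaled values for Slc5a12, Slc5a4a, Slc7a15, Slc2a7, Lct and Slc13a2 were taken, and are called members here. The score was 2.21 in the highest cell, 1.35 in the median member, 1.1319 in the last cell inside and 1.1316 in the first cell outside, so the border lies within a continuous range of the score and is not a gap between kinds of cell. Because these values chose the cells, every level in members is a description, and no test was made.

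The cells came from the small intestine of adult Lgr5DTR-GFP mice, a strain in which stem cells of the crypt carry a reporter and a toxin receptor at Lgr5. Cells negative for CD45, a marker of blood cells, and positive for EpCAM, a marker of epithelium, were sorted. The 8 libraries of this group are labelled as diet samples, with no diet named. According to the series' design, 2 intestines had been divided into 30 segments of equal length, tagged with MULTI-seq barcodes that mark the segment of a cell. The segment and the diet of a cell were not used here. The series also holds 2 total epithelium and 2 progenitor samples, which were not analysed here.

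Members were set against 17258 other enterocytes, defined as all other cells with values above 0 for Fabp2 and Apoa1, and against 3 sets of 600 enterocytes chosen in a similar way. Duodenal-marker enterocytes had a value for S100g and ranked highest on S100g, Reg1, Slc40a1 and Cybrd1. Ileal-marker enterocytes had a value for Slc10a2 and ranked highest on Slc10a2, Fabp6, Fgf15, Clec2h and Tmigd1. Tip-marker enterocytes had a value for Nt5e and ranked highest on Nt5e, Ada, Slc28a2 and Egfr, which are known from the villus tip. Each of the 3 sets was at 0 for the entry genes of the other 2.

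Enterocytes are the absorptive cells of the villus. They are born in the crypt, move up the villus and are shed at its tip, and they carry a brush border, an array of microvilli studded with enzymes and transporters. Their programme changes along the intestine: iron and calcium uptake is a feature of the duodenum, digestion and uptake of sugars and peptides of the proximal and middle intestine, and reclaiming of bile acids of the ileum. Lactase (Lct), the brush border enzyme that splits milk sugar, is classically highest in the jejunum.

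The 6 genes of the score code for transporters and 1 enzyme. Slc5a12 is a sodium-coupled carrier of lactate and other monocarboxylates, and Slc13a2 carries citrate and other dicarboxylates. Slc5a4a belongs to the sodium-glucose cotransporter family and Slc2a7 to the facilitative glucose transporter family, while Slc7a15 belongs to a family of amino acid transporters. On the mouse build GRCm38, Slc5a12 lies at chr2:110597298-110647779 (plus strand) and Lct at chr1:128284756-128328318 (minus strand). Slc5a4a (chr10:76147451-76189265, plus strand) lies beside Slc5a4b (chr10:76057494-76110961, minus strand), a close relative that was not part of the score. Reads of related genes may be split between them by the counting, so the separate levels of Slc5a4a and Slc5a4b are uncertain.

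Promoters of the Slc5a4 pair and of Lct are shown because both Slc5a4 genes were high in members, one by the rule and one not, and Lct gives the cells their name. The sequences are RefSeq's for GRCm38.p6, from 250 bases before to 50 bases after the annotated start, on the strand of the gene. In the Slc5a4 pair, capitals mark the longest stretch that both share. In Lct, capitals mark the letters AGATAA (known from GATA factors) and TTTATG (known from Cdx factors), searched on both strands.
Slc5a4a chr10:76147201-76147500 (plus strand): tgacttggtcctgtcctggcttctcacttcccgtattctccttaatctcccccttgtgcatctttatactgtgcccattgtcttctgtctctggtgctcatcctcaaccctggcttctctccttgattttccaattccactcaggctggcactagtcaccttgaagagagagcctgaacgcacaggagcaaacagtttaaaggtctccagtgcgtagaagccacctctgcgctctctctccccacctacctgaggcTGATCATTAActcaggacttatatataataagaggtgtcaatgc
Slc5a4b chr10:76110969-76111268 (minus strand): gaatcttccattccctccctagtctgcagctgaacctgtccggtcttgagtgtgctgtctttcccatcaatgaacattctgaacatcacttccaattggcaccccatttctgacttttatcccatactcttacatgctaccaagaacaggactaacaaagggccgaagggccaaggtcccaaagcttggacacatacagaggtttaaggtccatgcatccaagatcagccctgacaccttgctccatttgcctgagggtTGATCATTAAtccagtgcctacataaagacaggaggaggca
Lct chr1:128328269-128328568 (minus strand): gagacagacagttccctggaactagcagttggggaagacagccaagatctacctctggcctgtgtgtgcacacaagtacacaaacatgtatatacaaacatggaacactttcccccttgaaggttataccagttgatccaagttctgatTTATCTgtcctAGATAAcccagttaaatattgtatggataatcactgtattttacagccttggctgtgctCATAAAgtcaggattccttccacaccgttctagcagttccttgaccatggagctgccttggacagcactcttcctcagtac
The shared stretch of 10 bases began 6 bases after the start of Slc5a4a and 9 bases after that of Slc5a4b, and 6 of 32544 promoters in the RefSeq table held it on the given strand. In Slc5a4a it overlaps 1 match to GTTAAT, the letters of an HNF1 half-site, read on the other strand. Over all 32544 promoters of 300 bases, GTTAAT was present in 7.13%, AGATAA in 11.2%, TTTATG in 11.9% and the HNF4 letters CAAAGTCCA in 0.479%. Among the 6 promoters found for the score genes and Slc5a4b, these letters were present in 2, 1, 3 and 0. These are matches of letters and not binding sites. No entry for Slc5a12 was found in the table.

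Levels are given as parts per 1000000 of the summed values (ppm). A level was taken in each of 8 barcode sets, the groups of cells whose barcodes end in the same number, and averaged over the 7 sets that held at least 20 members. The sets could not be assigned to labelled samples, so the table is 1 pooled sample and the sets show spread only. A gene was called higher or lower where the mean of both levels was at least 20 ppm, the log2 difference (pseudocount 1 ppm) was at least 1 in size and every set had the same direction. The table's 20090 genes gave 6341 that reached 20 ppm against the other enterocytes, with a median log2 difference of -0.02. The depth behind the values is unknown: they are whole numbers, but summed to 2764 to 9739 per cell and carried signs of rescaling.

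Members were unevenly spread over the barcode sets. They made up 3.36% of all 17858 cells with Fabp2 and Apoa1, which all 600 members had, and that share too was set by the fixed number. Set 1 held 207 members, 7.69% of its enterocytes (6.71 to 8.76), and set 4 held 118, 5.46% (4.54 to 6.50). Set 7 held 7, 0.223% (0.0898 to 0.460), and was left out of levels. The median over sets was 2.76%. The intervals of the sets are exact binomial at 95% and cover counting error only, while the total over sets was fixed at 600.

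**Figure D1:**
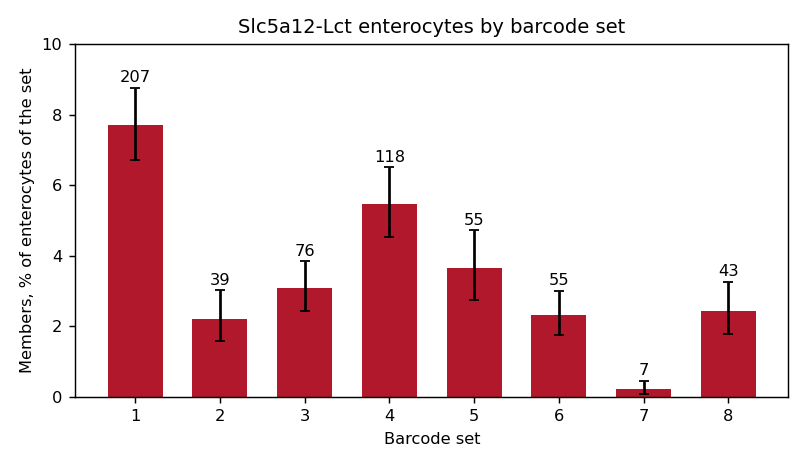
Members as a percentage of the enterocytes of each barcode set, with exact binomial 95% intervals as lines and the number of members above each bar. Set 1 reaches 7.69% and set 7 only 0.223%.

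Enterocyte markers were present in members. The summed level of 10 enterocyte markers was 38998 to 70816 ppm over sets in members, against 11655 to 47135 ppm in other enterocytes. Duodenal and ileal marker genes that the rule did not use were mixed. Reg1, a secreted protein of the proximal intestine, averaged 144 ppm in members and 19462 ppm in duodenal-marker enterocytes. Slc40a1 averaged 3.69 and 441 ppm there, and Cybrd1 0.269 and 7.95 ppm. Fabp6, the ileal bile acid binding protein, averaged 542 ppm in members and 32090 ppm in ileal-marker enterocytes over the 5 sets with enough cells of both. Tmigd1 averaged 132 and 1608 ppm there, and Fgf15 79.4 and 285 ppm. Clec2h was near the ileal-marker level, at 2536 and 3413 ppm, and was not low in members. These genes lie in the scores of those comparison cells, so their height in those cells was partly set by choice. The levels do not give a segment, and the word jejunal is not used for the cells here.

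Transcripts of other cell types were also found in members, and their order depended on the comparison cells. The 7 stem cell markers summed to 290 to 1037 ppm over sets in members, against 1198 to 5311 ppm in other enterocytes. The cycling list averaged 119 ppm against 403 ppm, the goblet list 4446 ppm against 5936 ppm, the Paneth list 3966 ppm against 5919 ppm, the enteroendocrine list 754 ppm against 914 ppm and the tuft list 19.4 ppm against 28.2 ppm. T cell, B cell, myeloid, endothelial and red blood cell lists each averaged at most 3.01 ppm in members, and stromal markers were at 0. Only 2 of the 5 stromal and 2 of the 5 endothelial markers were among the genes with values. Other enterocytes by this definition therefore include many cells or droplets with crypt transcripts: Lgr5, the stem cell receptor, had a value in 3% of members and 27.2% of other enterocytes. Gip, a hormone of enteroendocrine cells, had a value in 62.5% of members and 72.8% of other enterocytes, and the part of free RNA in such values was not tested.

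A narrower set of 2902 other enterocytes was added after these stem cell values had been seen. Its cells also had Anpep, Sis and Vil1 above 0 and Lgr5, Olfm4 and Mki67 at 0. Enterocyte markers averaged 54238 ppm in members and 43949 ppm in the narrower set. Most lists of other cell types were higher in members here. Stem cell markers averaged 535 and 52.4 ppm, but 2 of the 7 were at 0 in the narrower set by definition. Those were Lgr5 and Olfm4, which averaged 16.6 and 309 ppm in members, so much of that gap was fixed by the choice of cells. Goblet markers averaged 4446 and 2782 ppm, Paneth markers 3966 and 1460 ppm and enteroendocrine markers 754 and 327 ppm. Gip had a value in 62.5% of members and 36.7% of the narrower set. The part of these transcripts in the differences between members and the narrower set was not tested. Median detected genes were 2078 in members, 2655.5 in the narrower set and 1811 in all other enterocytes, and mitochondrial transcripts were 9.42%, 8.77% and 8.40%. Against all other enterocytes, 309 of 6341 genes (4.87%) were higher in members and 586 (9.24%) were lower. Against the narrower set, 176 of 6227 (2.83%) were higher and 298 (4.79%) were lower, and 201 of the 895 genes called in the first comparison changed direction. With comparison cells matched on detected genes, 202 of 6270 (3.22%) were higher and 409 (6.52%) lower, and with the 11297 that also lacked S100g, Slc10a2 and Nt5e, 440 of 6407 (6.87%) were higher and 777 (12.1%) lower. All these counts come from the contrast that chose the cells. Counts against the narrower set are therefore given beside those against all other enterocytes.

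Of the rule genes, Slc5a12 ranged from 673 to 957 ppm over sets in members, with a median of 862 ppm, against 19.8 to 107 ppm in other enterocytes, with a median of 83.7 ppm. Lct ranged from 960 to 1539 ppm in members (median 1204), against 82.5 to 389 ppm (median 223). For all 6 score genes the ranges of the 7 sets did not overlap, which the rule fixed in large part. Slc7a15 averaged 505 ppm in members and 73.4 ppm in other enterocytes, Slc13a2 354 and 58.5 ppm, Slc5a4a 135 and 16.7 ppm, and Slc2a7 90.1 and 15.3 ppm.

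The score genes were not all detected in the same cells. Lct had a value in 97.5% of members, 32.2% of other enterocytes and 5.83% of 7552 cycling crypt cells. Cycling crypt cells were all cells outside the members with Mki67 and Top2a above 0. They are no pure background, since Fabp2 had a value in 71.4% of them and Apoa1 in 39.8%, and some also count among other enterocytes. Slc7a15 had a value in 90.7%, 17.7% and 2.79% of these groups, and Slc13a2 in 76.0%, 15.3% and 2.17%. Slc5a4a had a value in 44.0%, 5.49% and 0.503%, and Slc2a7 in 38.2%, 5.70% and 0.689%. Median detected genes were 2078, 1811 and 2627, so the cycling crypt cells were the deepest of the 3 and held the fewest such values. All 6 genes had a value in 71 members, 5 in 211, 4 in 244, 3 in 73 and 2 in 1.

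**Figure D2:**
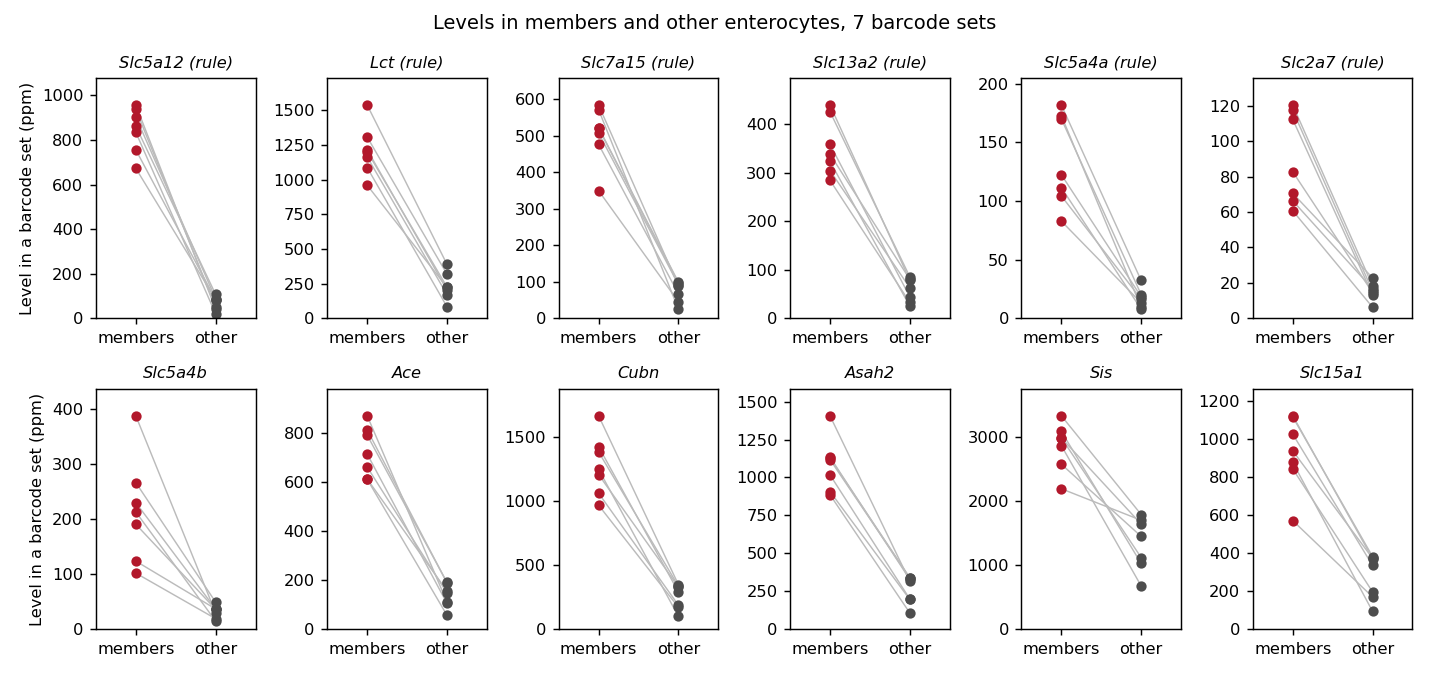
Level of 12 genes in ppm in members (red, left) and other enterocytes (grey, right), with 1 point per barcode set and lines joining the same set. The upper 6 genes are those of the score. For all 12 genes the 7 red points lie above the 7 grey ones, which the rule fixed in large part for the upper 6. The lower 6 were picked for display, and the share of all genes with such a gap is not given here.

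Sugar transporters were higher in members as a group. All 7 genes of the list that reached 20 ppm were higher than in other enterocytes (median log2 difference 1.63), and the background for a higher call was 4.87% of genes. Slc5a4b ranged from 101 to 387 ppm in members (median 213), against 14.3 to 48.7 ppm in other enterocytes (median 35.7), a log2 difference of 2.75. Slc5a1, the main sodium-glucose cotransporter of the brush border, ranged from 2023 to 2460 ppm (median 2174), against 380 to 1017 ppm (median 840), a log2 difference of 1.51. The ranges did not overlap for either gene.

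Exit and other routes of sugar transport showed the same direction. Slc2a2, which releases glucose and fructose to the blood, averaged 516 ppm in members and 144 ppm in other enterocytes (log2 1.84). Slc2a5, the fructose transporter of the brush border, averaged 101 and 44.4 ppm (log2 1.17), and its set ranges overlapped. Slc5a11, a sodium-coupled myo-inositol carrier, was higher by 1.86 and Slc5a9 by 1.63 on the log2 scale. Against the narrower set, 2 of 7 were higher, Slc5a4b (log2 1.73) and Slc5a9 (1.30). The median was 0.68, and Slc2a5 stood at 0.05.

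The disaccharidases beside Lct were higher against all other enterocytes in 3 of 3 cases, with a median log2 difference of 1.11. Treh, which splits trehalose, ranged from 86.0 to 210 ppm in members (median 177), against 16.0 to 67.9 ppm (median 56.1), a log2 difference of 1.79. Sis, which splits sucrose and starch products, averaged 2854 and 1337 ppm (log2 1.09), and Mgam, which digests starch products, 2448 and 1131 ppm (log2 1.11). In the narrower set, whose cells all had Sis by definition, Treh alone was still higher (log2 1.16), and Sis stood at 0.05.

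Of 8 genes of fructose breakdown and glucose synthesis, 3 were higher and none lower against all other enterocytes (median 0.81), and 1 was higher against the narrower set (median -0.23). That gene was Pck1, which starts the synthesis of glucose from oxaloacetate. It ranged from 96.2 to 385 ppm in members (median 169), against 10.3 to 75.6 ppm (median 36), with a log2 difference of 2.35 and no overlap. G6pc, which frees glucose in the last step, was higher by 1.53 against all other enterocytes and stood at 0.37 against the narrower set. Khk, which begins fructose breakdown, was not called, at 0.88 against all other enterocytes and -0.24 against the narrower set.

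Brush border peptidases, which trim peptides to amino acids and short peptides, were higher for 9 of 10 genes that reached 20 ppm (median 1.51) and for 5 of 10 against the narrower set (median 0.92). Ace, angiotensin-converting enzyme, ranged from 612 to 872 ppm in members (median 715), against 55.7 to 190 ppm (median 147). Its log2 difference was 2.41, and 1.73 against the narrower set. Ace had a value in 86.5% of members, 26.7% of other enterocytes and 3.96% of cycling crypt cells.

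Other peptidases that stayed higher against the narrower set included Xpnpep2 (log2 1.34), Dpp4 (1.32) and Ggt1 (1.08). Dpp4, which cuts after proline and inactivates incretin hormones, averaged 1357 ppm in members and 455 ppm in other enterocytes. Anpep averaged 2055 and 759 ppm, a log2 difference of 1.44, against 0.76 in the narrower set, where it was an entry gene. Mep1a was not called in either comparison (0.73 and 0.42). Tmprss15, enteropeptidase, which activates pancreatic trypsinogen in the duodenum, was under the limit of 20 ppm, with 5.75 ppm in members and 19.1 ppm in other enterocytes.

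Among 12 amino acid and peptide transporters, 8 were higher and 1 lower against all other enterocytes (median 1.10), and 5 were higher and 1 lower against the narrower set (median 0.51). Slc15a1, the proton-coupled carrier of dipeptides and tripeptides, ranged from 570 to 1121 ppm in members (median 936), against 92.3 to 381 ppm (median 333), with log2 differences of 1.76 and, against the narrower set, 1.91. Slc43a2, a carrier of neutral amino acids, averaged 835 and 205 ppm (log2 2.02), and Slc36a1, a proton-coupled carrier of small amino acids, 122 and 27.4 ppm (log2 2.11). Slc16a10, a carrier of aromatic amino acids, was higher by 1.48. Slc1a1, the carrier of acidic amino acids, was lower, with 2.50 to 37.9 ppm over sets in members and 45.1 to 64.3 ppm in other enterocytes (log2 -1.59), and it was lower against the narrower set as well (-1.63).

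Slc5a12 and Slc13a2 were high by the rule, and the other carriers of small acids were mixed. Of 6 monocarboxylate, dicarboxylate and sulfate transporters, 1 was higher against all other enterocytes, the sulfate carrier Slc26a2 (271 and 114 ppm, log2 1.24), and the median was 0.56. Slc5a8, a second sodium-coupled monocarboxylate carrier, ranged from 45 to 123 ppm in members and from 13.8 to 123 ppm in other enterocytes, so the ranges overlapped. Slc13a1, the sodium-sulfate carrier, averaged 85.0 ppm in members and 212 ppm in other enterocytes, was not called there (log2 -1.31), and was lower against the narrower set (-1.82). Against that set Slc26a2 stayed higher and the median was -0.20. With comparison cells that lacked S100g, Slc10a2 and Nt5e, 3 of 6 were higher, none was lower and the median was 0.96.

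**Figure D3:**
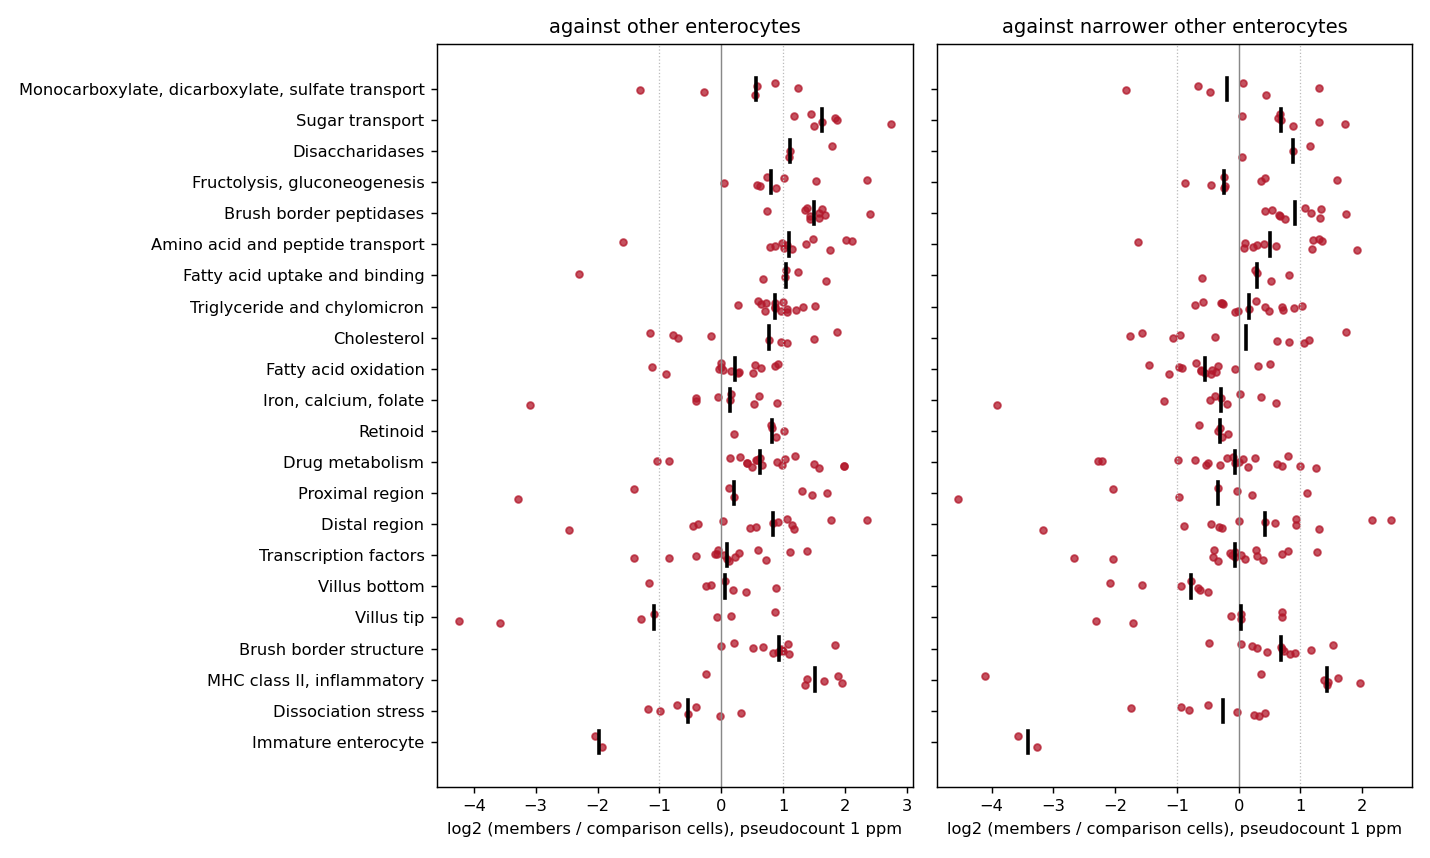
Log2 difference between members and all other enterocytes (left) or the narrower set (right) for the genes of 22 lists that reached 20 ppm in that comparison. Each point is a gene, the black bar is the median of the list and dotted lines mark a size of 1. Sugar transport shifts in median to 0.68 on the right, against 1.63 on the left.

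Lipid handling stood out less once the narrower set was used. Of 6 genes of fatty acid uptake and binding, 4 were higher and 1 was lower against all other enterocytes (median 1.04), and none was called either way against the narrower set (median 0.30). Cd36, a fatty acid receptor, averaged 89.4 ppm in members and 26.8 ppm in other enterocytes (log2 1.70). Acsl3, which activates fatty acids, was lower, with 13.8 and 71.5 ppm (log2 -2.30). Of 15 triglyceride and chylomicron genes, 5 were higher (median 0.87), and against the narrower set 1 was, Apoc3 (log2 1.02, median of the list 0.17). With comparison cells matched on detected genes, 1 of the 6 and 1 of the 15 were higher. Mttp, which loads lipid onto apolipoprotein B, was higher by 1.05 and stood at 0.17 against the narrower set.

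Of 9 cholesterol genes, 3 were higher and 1 was lower (median 0.77), and against the narrower set 3 of 10 were higher and 2 lower (median 0.12). Npc1l1, the brush border importer of cholesterol, averaged 474 ppm in members and 228 ppm in other enterocytes (log2 1.05), Soat2, which esterifies it, 237 and 83.2 ppm (1.5), and Abca1, which exports it, 132 and 35.3 ppm (1.88). All 3 stayed higher against the narrower set, at 1.06, 1.13 and 1.73. Idi1, of cholesterol synthesis, was lower against both (log2 -1.15 and -1.57), and Sqle was lower against the narrower set (-1.75). The exporters Abcg5 (264 and 134 ppm, log2 0.97) and Abcg8 (250.3 and 146 ppm, log2 0.77) were not called in either comparison.

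Calls in some metabolic lists are set beside the shares over all genes. Those were 4.87% higher and 9.24% lower against all other enterocytes, and 2.83% and 4.79% against the narrower set. With lists this short, the counts of calls do not set them apart from all genes. Of 14 genes of fatty acid oxidation and ketone synthesis, none was higher and 1 was lower (median 0.22). For the narrower set the median was -0.55 and the 1 lower gene was Cpt1a (log2 -1.13). Of 9 genes for iron, calcium and folate, 1 was lower, the iron exporter Slc40a1, with 0 to 7.49 ppm over sets in members and 28.0 to 58.8 ppm in other enterocytes (log2 -3.09), and the median was 0.13. For the narrower set 2 of 9 were lower, Slc40a1 (log2 -3.92) and the ferritin gene Fth1 (-1.22), and the median was -0.28. Of 5 retinoid genes, Rdh7 was higher (log2 1.02, median of the list 0.82), and against the narrower set none was called and the median was -0.31.

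Drug metabolism and defence genes were mixed. Of 19 drug metabolism genes, 6 were higher and 1 was lower (median 0.63), among them Cyp2b10 (235 and 58.4 ppm, log2 1.99) and Cyp3a25 (398 and 99.9 ppm, log2 1.98), and Gsta4 was lower (36.5 and 76.0 ppm, log2 -1.04). In the comparison with the narrower set, Cyp3a11 was the 1 higher gene (log2 1.26), Gsta1 (-2.28) and Gsta4 (-2.21) were lower and the median was -0.06. Cyp, Gst and Reg3 genes have close relatives whose reads may be shared.

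Of 6 genes of MHC class II and inflammation, H2-Ab1 and Nos2 were higher (log2 1.66 and 1.89, median of the list 1.52), and against the narrower set 4 of 7 were (median 1.43). Nos2, the inducible nitric oxide synthase, ranged from 9.99 to 550 ppm over sets in members (median 41.1), against 6 to 113 ppm (median 15.7). The ranges overlapped, and Nos2 had a value in 15.8% of members, 7.43% of other enterocytes, 16.4% of the narrower set and 3.26% of cycling crypt cells. Its share of cells in members was thus close to that in the narrower set. The MHC class II invariant chain Cd74 had a median of 263 ppm over sets in members and 111 ppm in other enterocytes, and was not called because 1 set went the other way.

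Of 7 genes of the villus tip, 3 were lower in members and none was higher (median -1.09), and Nt5e, a tip gene, was at 0 by the rule. Ada, which deaminates adenosine, ranged from 0 to 41.4 ppm in members, against 43.4 to 523 ppm in other enterocytes (log2 -3.57), and Slc28a2, a nucleoside carrier, averaged 15.4 and 310 ppm (log2 -4.24). Both stayed lower against the narrower set (-1.72 and -2.30), and Egfr did not (0.043). The median of the list was 0.04 there, so the shift of the list as a whole was not seen against those cells. Among 7 genes of the villus bottom, Lypd8 was lower (500 and 1131 ppm, log2 -1.18) and the median was 0.06. Relative to the narrower set 2 of these 7 were lower, Lypd8 (log2 -2.08) and Il18 (-1.57), and the median was -0.78. Reg3b averaged 3874 and 2937 ppm and was not called.

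Car4 and Ms4a18, on the list of immature enterocytes, were both lower (log2 -1.93 and -2.04), also against the narrower set (-3.27 and -3.57). Of 12 structural genes of the brush border, 3 were higher (median 0.94): Vil1, which bundles actin (log2 1.09), the sodium-proton exchanger Slc9a3 (1.08) and the scaffold Pdzk1 (453 and 125 ppm, 1.85). Against the narrower set 2 were, Pdzk1 (1.53) and Cdhr2 (1.18), with a median of 0.69. Of 7 stress genes of cell dissociation, Egr1 was lower (log2 -1.18) and the median was -0.53. Of 8 that reached the limit against the narrower set, Hspa1a was lower (-1.75) and the median was -0.26.

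Among 15 transcription factors, Maf (1151 and 439 ppm, log2 1.39) and Tbx3 (291 and 135 ppm, log2 1.10) were higher and Onecut2, a factor of the duodenum, was lower (41.0 and 110 ppm, log2 -1.41), with a median of 0.09. Tbx3 (1.26) and Onecut2 (-2.03) were called against the narrower set too, Meis2 (-2.67) was lower there as well, and Maf stood at 0.80. The median over the 17 genes that reached the limit there was -0.06. Hnf4g, a master factor of enterocytes, averaged 705 ppm in members and 680 ppm in other enterocytes (log2 0.05). Gata4, which marks proximal enterocytes, averaged 149 and 137 ppm (0.12).

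Of 7 proximal genes, Gda, Ms4a10 and Hsd17b6 were higher and Reg1 and Onecut2 were lower (median 0.21). Of the same 7, 1 was higher against the narrower set, Gda, Reg1 and Onecut2 were lower, and the median was -0.33. Of 13 distal genes, 5 were higher and none was lower (median 0.83), and 3 were higher against the narrower set (median 0.42). Differences were positive for 10 of the 13, and for 8 against the narrower set. Fabp6, the ileal bile acid binding protein, was lower in members in every set but set 2, and so was not called. It was at most 1032 ppm over sets in members (median 464), against 909 to 5916 ppm in other enterocytes (median 2061). Gda, guanine deaminase, ranged from 1442 to 2087 ppm in members (median 1817), against 213 to 702 ppm (median 682), a log2 difference of 1.72, and 1.10 against the narrower set. Cubn, cubilin, the receptor that takes up vitamin B12 bound to intrinsic factor, ranged from 969 to 1670 ppm (median 1250), against 98.3 to 347 ppm (median 290), with log2 differences of 2.35 and 2.46.

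Most members had a value for each of Gda (97.8%) and Cubn (92.0%). In other enterocytes the shares were 55.5% and 27.6%, and in the narrower set 89.8% and 37.9%. Gda and Cubn both had a value in 90% of members (87.3 to 92.3), 22.7% of other enterocytes (22.1 to 23.3) and 35.5% of the narrower set (33.8 to 37.3). In members the high single shares leave little room for another joint share. Amn, the partner of cubilin, averaged 200 ppm in members and 95.2 ppm in other enterocytes (log2 1.06, ranges overlapping). Plb1, a brush border phospholipase, averaged 675 and 196 ppm (log2 1.78) and was higher against the narrower set (2.16). Clec2h, a lectin gene of the distal intestine, averaged 2367 and 1067 ppm (log2 1.15). Fgf15, the ileal hormone that signals bile acid uptake to the liver, averaged 70.8 and 30.9 ppm (log2 1.17), with overlapping ranges.

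Outside the lists, the 12 genes with the highest differences included further enzymes of the brush border. Asah2, neutral ceramidase, ranged from 886 to 1407 ppm in members (median 1118), against 106 to 338 ppm (median 314), with log2 differences of 2.06 and, against the narrower set, 1.45. Enpp7, which splits sphingomyelin, averaged 416 and 93.5 ppm (2.14 and 2.29), so that enzymes of successive steps of sphingomyelin digestion were higher. Dnase1, which cuts DNA, averaged 294 and 48.7 ppm (2.57 and 1.62), and Slc23a1, the sodium-coupled vitamin C carrier, 97.2 and 16.0 ppm (2.53 and 2.00). Also among them were Grin2a (2.28), a glutamate receptor subunit, Npl (2.11), of sialic acid breakdown, and Barx2 (2.07), a homeobox factor. The other 5 were Gm13270, 2010001M07Rik, Gdpd2, Unc93a2 and 5033421B08Rik, between 1.92 and 2.26. All 12 were higher against the narrower set except Npl, which was not called there (log2 2.56).

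The 12 lowest were Sorbs2os, Gm20663, Kcnq1ot1, Ly6m, Nhs, Lgr5, Mcc, Clca4a, Htr4, Ldlrad4, Rad51b and Sorbs2, with log2 differences from -4.96 to -3.50. Only Ly6m (-2.61) and Clca4a (-2.36) were lower against the narrower set. Both were high in tip-marker cells, with 12 ppm in members and 2453 ppm in tip-marker cells for Ly6m, and 59.9 and 6629 ppm for Clca4a. Lgr5, Htr4, Sorbs2, Rad51b, Kcnq1ot1 and Mcc had the opposite sign there, at 4.14, 1.68, 1.22, 1.12, 1.07 and 0.71, where the zero of Lgr5 was set by definition and none was called. The part of crypt cells or of free RNA in these 12 differences was not tested.

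Against duodenal-marker enterocytes, members carried more peptide and amino acid genes and fewer iron and fructose genes. In all, 532 of 6158 genes (8.64%) were higher and 514 (8.35%) were lower, with a median of 0.10. Without rescaling to ppm the split was 389 higher and 784 lower, and median detected genes were 2078 in members and 2473.5 in duodenal-marker cells. Of 11 peptidases, 8 were higher and 1 lower (median 2.08): Dpp4 averaged 1357 ppm in members and 197 ppm in duodenal-marker cells (log2 2.78), and Tmprss15 was lower (5.75 and 98.2 ppm, -3.88). Slc15a1 averaged 926 and 116 ppm (log2 2.98), one of 7 higher among 11 amino acid and peptide transporters.

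Sugar genes divided in that comparison. Slc5a4b (216 and 19.4 ppm, log2 3.41) and Slc5a11 (200 and 86.9 ppm, 1.19) were higher, while Slc2a2 (516 and 688 ppm) and Slc2a5 (101 and 211 ppm) were not called. Sis averaged 2854 ppm in members and 3631 ppm in duodenal-marker cells and was not called. Of 8 fructose and glucose synthesis genes, Pck1 was higher (log2 2.16) and 3 were lower, Fbp1 (41.6 and 208 ppm, -2.29) among them. Cubn averaged 1282 and 41.1 ppm (log2 4.93), and 9 of 14 distal genes were higher and none lower (median 2.26).

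The 5 highest genes against duodenal-marker cells were Plb1 (log2 5.72), Enpp7 (5.66), Slc34a2 (5.03), a sodium-phosphate carrier, Cubn (4.93) and Grin2a (4.82). The 5 lowest were Akp3 (-6.63), an alkaline phosphatase, Sult6b2 (-6.02), Slc16a9 (-5.57), Slc37a2, listed at 0 in members and 44.8 ppm in duodenal-marker cells, and the factor Meis2 (-5.48). Akp3 averaged 1.18 ppm in members and 215 ppm in duodenal-marker cells. Of 7 iron, calcium and folate genes, 4 were lower and none higher (median -1.57), with Fth1 at 3208 and 21185 ppm (log2 -2.72).

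Against ileal-marker enterocytes, 272 of 5839 genes (4.66%) were higher and 154 (2.64%) were lower over the 5 sets with at least 20 cells of both, with a median of 0.03. Members had higher levels of fat and sugar genes there. Slc2a2 averaged 509 ppm in members and 75.6 ppm in ileal-marker cells (log2 2.74), Cd36 75 and 3.78 ppm (3.99), Fabp1 10729 and 2069 ppm (2.37), and Apoa4 6074 and 656 ppm (3.21). Proximal genes were higher for 6 of 7 (median 1.88). Gata4 averaged 149 and 34.1 ppm (2.10).

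Peptidases and the cubilin complex were nearer to the ileal-marker level. Anpep averaged 2163 ppm in members and 2230 ppm in ileal-marker cells, Cubn 1351 and 1306 ppm, and Amn 213 and 206 ppm, and none of these was called. Ace was an exception, at 719 and 132 ppm (log2 2.44), as was Mme, neprilysin, at 758 and 160 ppm (2.24). Mep1a was lower (271 and 743 ppm, -1.45). Of 10 peptidases 2 were higher and 1 lower (median 0.21).

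Of 9 distal genes outside the ileal score, none was higher and 5 were lower (median -1.02), with the bile acid exporters Slc51a (316 and 1125 ppm, log2 -1.83) and Slc51b (318 and 777 ppm, -1.29) and the bile acid receptor Nr1h4 (107 and 590 ppm, -2.46) among them. Slc5a8 and Slc13a1 were lower as well, at 95.4 and 271 ppm and at 79.2 and 1162 ppm. The 5 highest genes were Cyp2b10 (4.26), Slc23a1 (4.17), Cd36 (3.99), 2010001M07Rik (3.92) and Efr3b (3.90). The 5 lowest were Saa1 (-6.42), a serum amyloid, Rnf180 (-4.98), 1810065E05Rik (-4.26), Slc25a48 (-4.22) and Suox (-3.90), sulfite oxidase. The difference for Saa1 ran from -7.69 to -2.04 over the sets. In all other enterocytes Saa1 was also uneven, at 90.3 ppm in set 6, 132 ppm in set 8 and at most 7.39 ppm in the other sets used for levels.

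Against tip-marker enterocytes, 1108 of 5454 genes (20.3%) were higher and 464 (8.51%) lower over 6 sets, with a median of 0.33, and without rescaling the split was 1556 and 317. Median detected genes were 2078 in members and 1472 in tip-marker cells, and the part of that gap in these counts was not tested. Sugar transporters were higher for 7 of 7 (median 3.29), with Slc2a2 at 530 ppm in members and 12.9 ppm in tip-marker cells (log2 5.26). All 10 peptidases were higher (median 2.45). Stress genes of cell dissociation were lower for 5 of 7 (median -1.28), with Atf3 at 36.6 and 304 ppm (log2 -3.02) and Jun at 201 and 983 ppm (-2.28). Mitochondrial transcripts were 9.42% in members and 5.84% in tip-marker cells, and the part of either in these differences was not tested. Apob was not called, at 2733 and 5094 ppm, nor was Apoa4, at 6821 and 18118 ppm.

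Klf4, a factor of mature cells, was lower than in tip-marker cells (167 and 653 ppm, log2 -1.96), and Prdm1 was too (2.89 and 118 ppm, -4.94). Slc15a1 did not reach a call (935 and 528 ppm, log2 0.82). The highest 5 genes were Grin2a (5.32), Maob (5.31), Slc5a11 (5.31), Slc2a2 (5.26) and Gm13270 (5.23). The lowest 5 were Ly6m (-7.56), Clca4a (-6.77), Cldn4 (-6.13), Utp14b (-6.02) and Gm47507 (-5.90).

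Some genes were higher in members than in each of the 3 sets, which all share the members as one side. Slc23a1 averaged 97.2 ppm over 7 sets in members, and 4.94, 4.59 and 9.51 ppm in duodenal-, ileal- and tip-marker cells. Dnase1 averaged 294 ppm in members, and 22.5, 24.7 and 28.5 ppm in those sets. Asah2 averaged 1085 ppm in members, and 164, 187 and 222 ppm. Slc36a1 averaged 122 ppm in members, and 19.4, 10.3 and 13.3 ppm.

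**Figure D4:**
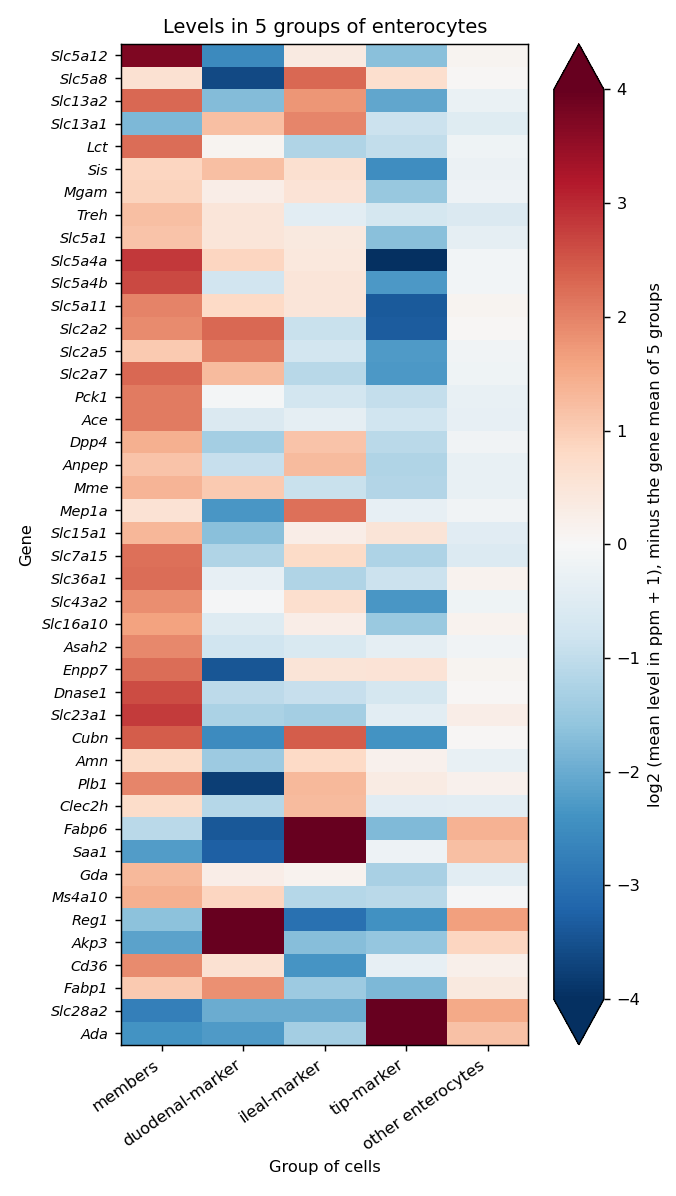
Mean level of 44 genes in members and 4 groups of enterocytes, as log2 (ppm + 1) minus the mean of the gene over the 5 groups, with red above and blue below that mean and colours ending at 4 in either direction. Ace, Asah2, Dnase1 and Slc23a1 are red in members. Cubn is red in members and in ileal-marker cells, and Slc2a2 in members and in duodenal-marker cells.

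Members varied widely among themselves in several genes. Fabp1, which binds fatty acids in the cytoplasm, was 787 ppm in the cell at the 10th percentile of members, 3418 ppm in the median cell and 29776 ppm at the 90th percentile. Rbp2, the retinol binding protein of enterocytes, spread from 583 through 2326 to 19764 ppm at the same points. Reg3b, an antimicrobial lectin, spread from 119 through 1148 to 7111 ppm. Mgam spread less, from 724 through 2283 to 5399 ppm, and so did Clec2h, from 964 through 2295 to 4412 ppm.

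Fabp1 and Rbp2 varied together over the 600 members (Spearman rho 0.83, and 0.65 to 0.92 within the 7 sets). Fabp1 had a rho of 0.65 with Apoa4, -0.45 with Clec2h, -0.34 with Cubn, -0.37 with Fabp6 and 0.18 with Sis. The 600 points come from one pooled table and share cell depth, and Fabp1 had a rho of 0.68 with the number of detected genes, against 0.21 for Sis. These are descriptions of the cells, and the part of depth in them was not tested.

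Barcode set 5 stood apart in this respect. Its 55 members had a median Fabp1 of 19301 ppm, where the lowest median was 1639 ppm in set 2 and the middle of the 7 sets was 2902 ppm. The median Rbp2 of its members was 13766 ppm, where the middle of the sets was 2056 ppm. Members of set 5 also had the most detected genes, with a median of 2906, where the other sets had 1665 to 2461. Without set 5, 268 genes were higher and 561 lower against all other enterocytes, where all 7 sets gave 309 and 586. Of 104 named genes called against all other enterocytes, 19 were under a log2 size of 1 without some set. Without set 5 these included Slc2a5 (0.96), Apoc2 (0.96), Mttp (0.94), Amn (0.98) and Rdh7 (0.84). Without set 2 they included Sis (0.98), Npc1l1 (0.91), Vil1 (0.98), Slc9a3 (0.97) and Mttp (0.98). Npc1l1 (0.995) was also under without set 3, Gsta4 (-0.998 and -0.94) without set 3 or 8, and Idi1 (-0.96) and Fgf15 (0.97) without set 8.

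**Figure D5:**
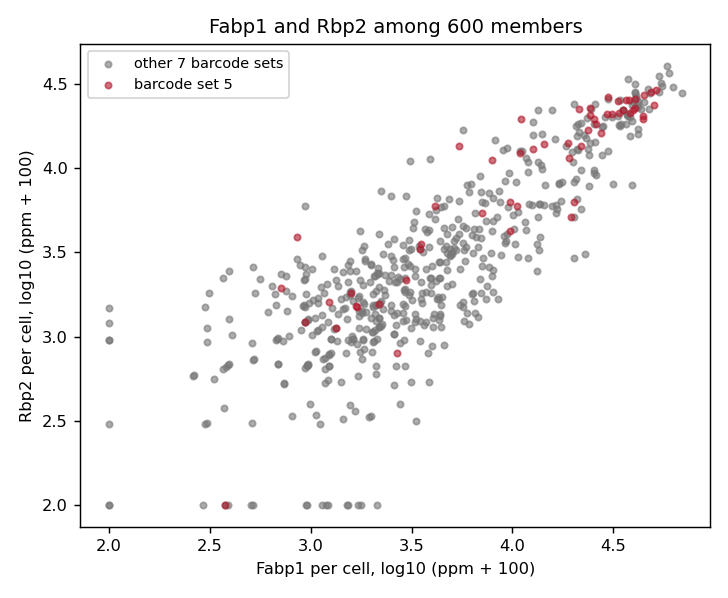
Fabp1 (horizontal) and Rbp2 (vertical) in each of 600 members, as log10 of ppm plus 100, with barcode set 5 in red and the other 7 sets in grey. The points rise together (rho 0.83), and the median cell of set 5 (Fabp1 19301 ppm) lies at the upper right.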

How the data were processed

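Sorted epithelium was profiled with droplet-based 3' single-cell RNA sequencing. The submitters' processing notes name Cell Ranger and mm10. How cells were filtered and libraries merged was not given in the sources used here. In the matrix the authors deposited (20090 genes, 27881 cells), the unit was taken to be a score, since whole numbers with 2 commoner than 1 in 25.3% of the cells do not look like plain counts. No count test was run. Cell totals were 2764 to 9739, and the depth behind them is unknown. Barcode endings (8) did not match sample titles, so cells were treated as 1 pooled sample. Whether sets came from separate animals is not recorded. Of all barcodes, 27802 were distinct, 80 pairs were shared between sets, and 6 members had a shared barcode. Doublets were neither called nor removed.

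Levels were sums over the cells of a set, in ppm, averaged with equal weight over sets holding at least 20 cells of both groups. Computation used scipy 1.17.1, Python 3.11.15, matplotlib 3.10.9, pandas 2.3.3 and numpy 2.4.6, and the comparison was tested on simulated data. Gene positions are those of the GENCODE annotation of GRCm38, and promoters come from RefSeq (GRCm38.p6). The 22 gene lists held 223 genes. Genes outside them were named by a rule, the 12 highest and 12 lowest called genes against other enterocytes and the 5 highest and 5 lowest against each marker set, leaving out rule genes and, in a marker set, its scoring genes. Members and lists were chosen with earlier results of these data known. The alternatives tried were the pseudocount, the low filter, weighting and rescaling, leaving out a set, a cell filter, 300 or 1200 members, other comparison cells and, after seeing the data, the narrower set. Some listed genes are counted but not reported by name here.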

Additional observations from a re-analysis of the deposited data

Results flagged for a closer look

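In members, barcode set 5 lay far above the other sets in 2 of 23 groups of set values examined. Chance gives such a value in about 1 of 20 groups, and the count is close to that rate. The 2 groups are not separate results. Fabp1 lies in the first list and Rbp2 in the second, with averages of 11799 and 7606 ppm in members. These 2 genes varied together (rho 0.83) and were described for set 5 above. The summed level of the 6 genes of fatty acid uptake and binding was 25396 ppm in members of set 5, where the other 6 sets had 7859 to 14558 ppm. The summed level of the 7 retinoid genes was 16460 ppm in members of set 5, where the other 6 sets had 3947 to 9022 ppm. Members of set 5 also had the most detected genes (median 2906), and the part of this in the 2 values was not tested.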

How the results depend on the processing

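Against all other enterocytes (309 higher, 586 lower), no low filter gave 2064 lower, a filter of 100 ppm 153 higher and 150 lower, comparison cells matched on detected genes 202 higher, and the narrower set 176 higher and 298 lower. Against the narrower set, 194 of 895 calls were kept and 201 changed direction. Reversed there were the log2 values of Mogat2 (-0.060), Rdh7 (-0.33), Hsd17b6 (-0.023), Egfr (0.043), Kcnq1ot1 (1.07), Lgr5 (4.14), Mcc (0.71), Htr4 (1.68), Rad51b (1.12) and Sorbs2 (1.22), and the cause was not tested, except that Lgr5 is at 0 there by definition. The other alternatives for this comparison changed no direction among the 895. Against duodenal-marker cells, no low filter gave 834 lower, 100 ppm 267 higher and 185 lower, and no rescaling 784 lower, with a median log2 of -0.09, against 0.10 with rescaling. Against ileal-marker cells, no low filter gave 510 higher and 293 lower, and 100 ppm 94 and 42. Against tip-marker cells, no low filter gave 1919 higher, and 100 ppm 260 higher and 258 lower. Without rescaling the tip-marker median was 0.59, against 0.33. Leaving out each barcode set gave 261 to 380 higher and 542 to 645 lower against all other enterocytes, 516 to 614 and 482 to 576 against duodenal-marker, 259 to 333 and 161 to 182 against ileal-marker, and 1100 to 1167 and 439 to 516 against tip-marker cells. The median member share was 3.76% of enterocytes that also had Sis. No paired analysis was possible because the barcode sets carry no replicate number of the labels, but each call already needs the same direction within every barcode set. Absence of a value in a cell cannot be told apart from low depth.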
